A study of Nothobranchius furzeri with 12 samples.

Results

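In the retina of the turquoise killifish, 39 named genes had their highest counts at the youngest of 4 ages. They were selected on their measured CPM (counts per 1000000 counts of the library). Each had a mean of at least 5 CPM over the 12 libraries, each of its 3 values at 1.5 months lay above all 9 later values, and its 1.5 month mean was at least 1.3 times the mean of those 9. Entries known by a locus number alone were left out, as were atoh7, mpz, stmn1b, fabp7, sox4 and genes whose names start with nduf, atp5 or psm. Of 25122 entries in the count table, 10533 carried a gene name, 8191 of these reached a mean of 5 CPM and 8095 were left after the exclusions. The 39 genes were 0.482% of the 8095. Since their height at 1.5 months chose them, that height is given as a description with no test. Differences among the 3 later ages were tested. The choice did not compare those ages with each other. It did cap every later value below the 1.5 month values, so counts of the 39 beside all genes are not free of the choice.

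The tissue was retina with attached retinal pigment epithelium (RPE, the pigmented layer that serves the photoreceptors), with the lens, cornea, choroid, sclera and iris dissected away. It came from untreated male Nothobranchius furzeri, 3 separate fish at 1.5 months, 3.0 months, 4.5 months and 6.0 months each. Every fish, at every age, belonged to a mutant line crossed back to GRZ, a strain with a short life. The labels give neither the mutated gene nor the genotype of each fish, and whether genotypes differed between ages was not tested. Nextera XT libraries shared a NovaSeq lane and held 34437141 to 50268318 counts each.

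The fish retina keeps growing through life from a ring of dividing progenitors at its rim, the ciliary marginal zone, and its newborn neurons extend axons and build synapses next to older ones. Zic and Fox transcription factors, modulators of the Wnt signal and enzymes that make retinoic acid pattern the eye cup and its rim in vertebrate embryos. Dividing cells also need the mitotic checkpoint, chromatin enzymes, chaperones and a high rate of protein synthesis.

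The size of the difference was modest for most of the 39 genes. The ratio of a gene, its 1.5 month mean over its later mean, is above 1 in each by the choice. It ran from 1.33 to 7.53, with a median of 1.59. Of the 39, 6 genes reached 2 times, 19 lay between 1.5 and 2 times and 14 lay below 1.5 times. As a median over the genes, the mean at 3.0 months was 67.2% of that at 1.5 months, the mean at 4.5 months 54.6% and the mean at 6.0 months 64.9%. The margin between the groups was narrow. The lowest value at 1.5 months exceeded the highest later value by under 10% in 24 of the 39 genes and by at least 20% in 6. The median coefficient of variation of the genes was 22.1% over the 9 later libraries, which span 3 ages, and 11.3% over the 3 fish of 1.5 months. The choice favours genes with a small spread at 1.5 months, so the lower figure there is no finding about these genes. In bulk tissue such as this, fewer cells of a type and less RNA per cell cannot be told apart.

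**Figure D1:**
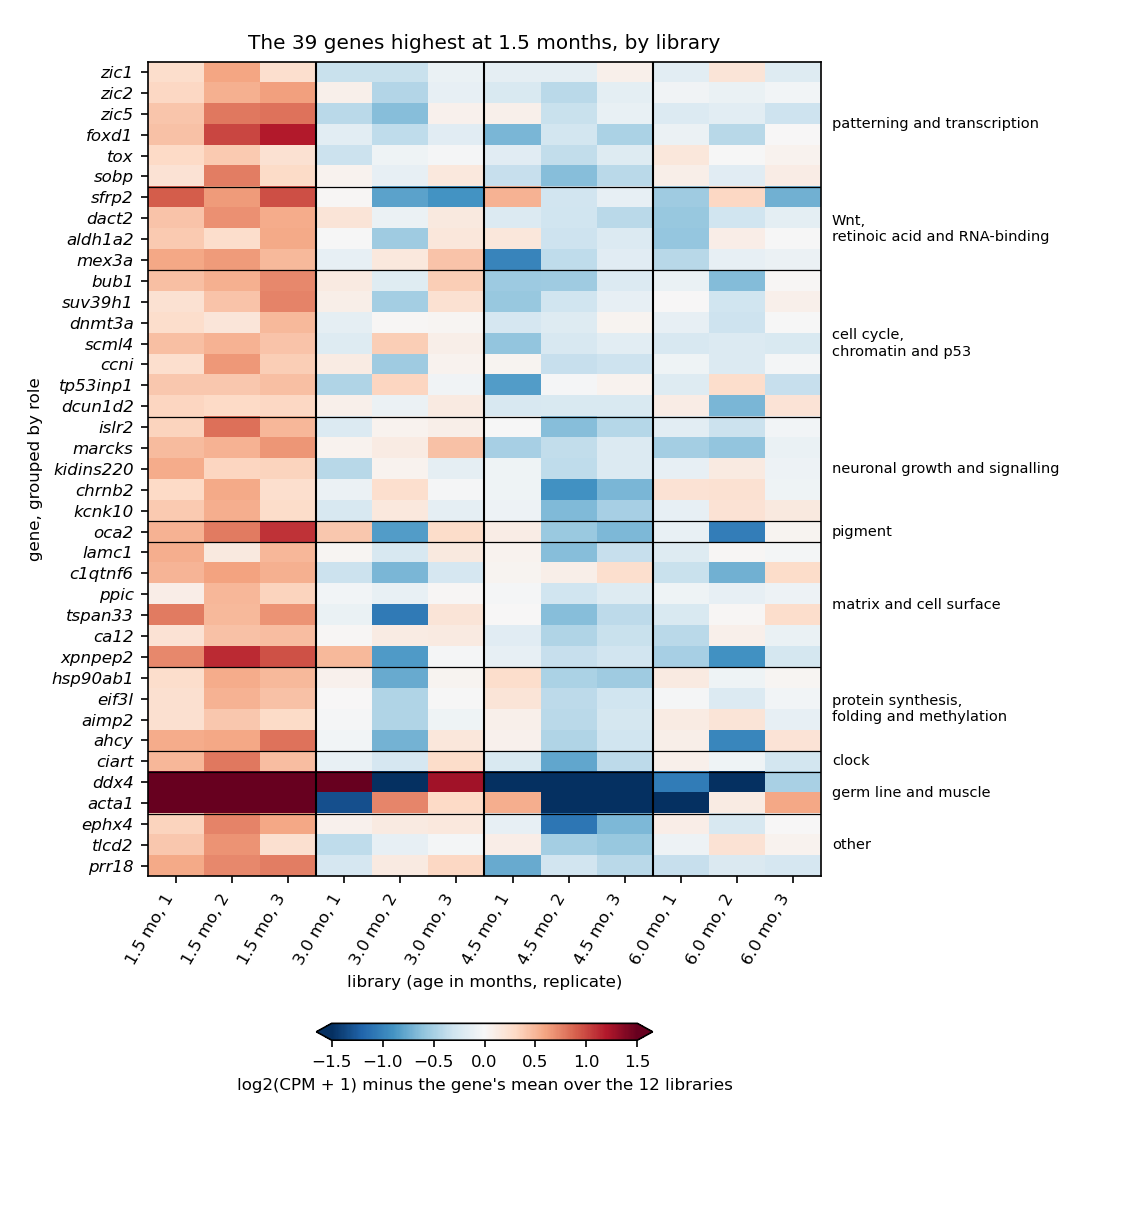
Heat map of the 39 genes (rows, grouped by role) in the 12 libraries (columns, by age in months and replicate). Colour is log2(CPM + 1) minus the mean of the gene over all libraries, red for higher and blue for lower, with the scale ending at 1.5 in each direction; the 3 columns of 1.5 months are red throughout because the genes were chosen for it, while the later columns differ from gene to gene.

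Across the 8095 eligible genes, 66 had all 3 values at 1.5 months above the 9 later values (0.815%), and 39 of these reached the minimum ratio while 27 did not. A further 222 genes had the ratio but overlapped. With each of the other ages in the place of 1.5 months, the same rule found 10 genes at 3.0 months, 52 at 4.5 months and 111 at 6.0 months. The smallest ratios inside the rule were those of aimp2 (1.33), tox (1.33) and ppic (1.34), and just outside were agrn (1.298) and fam210b (1.296), next to slc7a4, which missed 1.3 in a later digit. By mean level the last inside were ca12 (5.72 CPM), ddx4 (5.76 CPM) and tlcd2 (5.78 CPM), and the first outside were tk1 (4.84 CPM), rgma (4.83 CPM) and slc1a1 (4.36 CPM). By overlap the narrowest were lamc1, with 50.82 CPM in the highest later library and 50.84 CPM in the lowest 1.5 month library, hsp90ab1 (2793 CPM later, 2795 CPM at 1.5 months) and chrnb2 (55.49 CPM later, 55.54 CPM at 1.5 months). The genes dpysl5, gtpbp10 and adam22 stayed out by a similarly small margin. With library sizes scaled by TMM, which corrects for a few genes taking a large share of the counts, the rule held for 136 genes, the 39 among them.

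**Figure D2:**
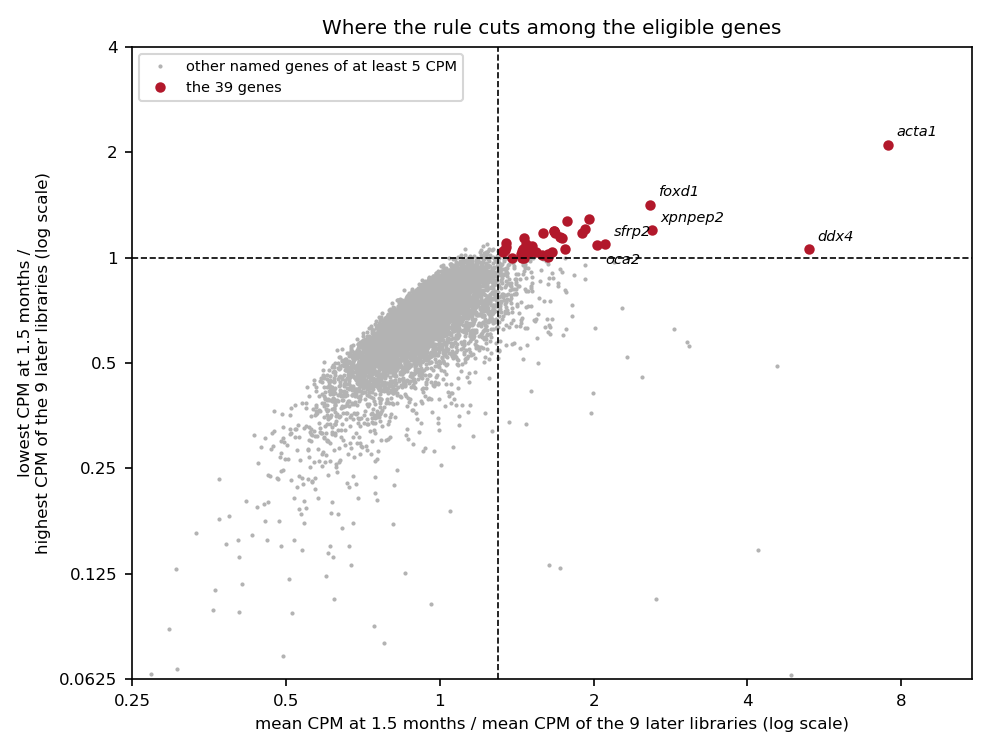
The rule over the 8095 eligible genes. The x axis is the mean CPM at 1.5 months over the mean of the 9 later libraries and the y axis the lowest CPM at 1.5 months over the highest later CPM, both on log scales; dashed lines mark the thresholds of 1.3 and 1, and 23 genes lie outside the window. The 39 genes (red) sit in the upper right corner at the edge of the main cloud, with acta1, ddx4, foxd1 and xpnpep2 apart from it.

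The first group by role is made of patterning genes, 6 transcription factors and cofactors. Among them were zic1, zic2 and zic5, which encode zinc-finger proteins of the neural plate border and dorsal neural tube, and foxd1, a forkhead factor that marks the ventral temporal retina of vertebrate embryos. The level of foxd1 was 7.94, 12.2 and 13.9 CPM at 1.5 months, 4.88, 4.05 and 4.85 CPM at 3.0 months, 3.065, 4.43 and 3.74 CPM at 4.5 months and 5.15, 3.92 and 5.59 CPM at 6.0 months. The 3 values at 1.5 months stood apart from a tight later band, and the ratio was 2.57. For zic5 the values were 13.05, 17.15 and 17.45 CPM at 1.5 months, 6.97, 5.74 and 10.01 CPM at 3.0 months, 10.1, 7.32 and 8.76 CPM at 4.5 months and 8.12, 8.44 and 7.44 CPM at 6.0 months. Its later libraries showed no order by age, and their means lay within 7.57 to 8.73 CPM at the 3 later ages. For zic2, the means were 27.4 ± 3.08 CPM at 1.5 months, 17.3 ± 3.26 CPM at 3.0 months, 15.9 ± 1.48 CPM at 4.5 months and 18.4 ± 0.419 CPM at 6.0 months (SD, n = 3 each), a ratio of 1.59. For zic1 they were 14.99 ± 2.19 CPM at 1.5 months, 9.31 ± 0.966 CPM at 3.0 months, 10.8 ± 0.984 CPM at 4.5 months and 10.9 ± 1.83 CPM at 6.0 months, a ratio of 1.45. In zic1 the margin came from 6.0 months replicate 2, which at 13.05 CPM was near the lowest 1.5 month value of 13.65 CPM. The other 2 members of the group, tox, an HMG-box factor, and sobp, a zinc-finger nuclear protein, had ratios of 1.33 and 1.50. For sobp the means were 29.4 ± 6.575 CPM at 1.5 months, 21.8 ± 2.28 CPM at 3.0 months, 15.3 ± 1.68 CPM at 4.5 months and 21.6 ± 2.37 CPM at 6.0 months, so that the 3.0 and 6.0 month means were alike and the 4.5 month mean lower.

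Other Zic genes were looked up after the members were known. The mean of zic6 was 27.65 ± 3.95 CPM at 1.5 months, 23.9 ± 2.29 CPM at 3.0 months, 21.05 ± 2.01 CPM at 4.5 months and 25.8 ± 3.97 CPM at 6.0 months, with overlapping ages. The paralog zic2b stayed at 8.92 ± 0.256 CPM at 1.5 months, 7.91 ± 1.57 CPM at 3.0 months, 8.45 ± 1.16 CPM at 4.5 months and 10.4 ± 0.988 CPM at 6.0 months, a ratio of 1.00. The level of zic4, under the floor of the rule, was near 1 CPM or lower throughout. It had 1.182, 1.006 and 1.015 CPM at 1.5 months and at most 0.968 CPM later, a ratio of 1.84. In the RefSeq annotation of the NfurGRZ-RIMD1 assembly zic1 and zic4 are neighbours. A member and a gene at the edge of detection, both highest at 1.5 months, lie side by side there. That annotation held 26 of the 39 symbols, on 15 chromosomes with at most 3 on any of them.

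The second group holds modulators of signals and an RNA-binding protein. The secreted Wnt modulator sfrp2 had 65.0, 53.85 and 67.7 CPM at 1.5 months, 34.4, 19.1 and 17.8 CPM at 3.0 months, 49.4, 27.75 and 31.3 CPM at 4.5 months and 23.2, 42.4 and 20.4 CPM at 6.0 months. Its 1.5 month values were all above 50 CPM, and the later ones spread widely, with 4.5 months replicate 1 and 6.0 months replicate 2 nearest to the young fish. The paralog sfrp5 had 26.9 ± 4.33 CPM at 1.5 months, 24.9 ± 7.35 CPM at 3.0 months, 24.7 ± 1.07 CPM at 4.5 months and 20.8 ± 0.785 CPM at 6.0 months, and its ages overlapped. The level of dact2, a Dishevelled-binding protein that dampens Wnt and TGF-beta signals, was 39.2, 47.1 and 43.2 CPM at 1.5 months, 33.25, 27.2 and 32.2 CPM at 3.0 months, 25.05, 23.2 and 21.5 CPM at 4.5 months and 19.2, 23.3 and 26.0 CPM at 6.0 months. It stepped down at 3.0 months and again at 4.5 months with no overlap between those 3 ages, and the 6.0 month values overlapped those of 4.5 months. The retinaldehyde dehydrogenase aldh1a2, which makes retinoic acid, had 8.48 ± 1.00 CPM at 1.5 months, 5.68 ± 1.58 CPM at 3.0 months, 5.64 ± 1.204 CPM at 4.5 months and 5.51 ± 1.53 CPM at 6.0 months, a ratio of 1.51 and a level near the floor of the rule. For mex3a, an RNA-binding protein of stem and progenitor cells in mammals, the values were 66.1, 69.1 and 61.75 CPM at 1.5 months, 40.1, 49.2 and 59.4 CPM at 3.0 months, 21.5, 33.5 and 38.9 CPM at 4.5 months and 32.6, 40.2 and 41.2 CPM at 6.0 months. All 3 values of 1.5 months lay above 60 CPM, 3.0 months replicate 3 came close to them, and 4.5 months replicate 1 was lowest.

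The members of the third group act in the cell cycle, on chromatin and in the p53 and ubiquitin-like pathways. The mitotic checkpoint kinase bub1 had 9.89, 10.5 and 12.1 CPM at 1.5 months, 7.72, 6.01 and 9.31 CPM at 3.0 months, 4.47, 4.53 and 5.90 CPM at 4.5 months and 6.42, 4.07 and 7.10 CPM at 6.0 months, a ratio of 1.76. The 4.5 month values lay just below those of 3.0 months and among those of 6.0 months. The related checkpoint gene bub1b, no member, had 8.05 ± 0.540 CPM at 1.5 months, 9.44 ± 0.793 CPM at 3.0 months, 10.03 ± 0.588 CPM at 4.5 months and 9.70 ± 1.03 CPM at 6.0 months. The histone H3 lysine 9 methyltransferase suv39h1 had 8.33 ± 1.72 CPM at 1.5 months, 5.54 ± 1.62 CPM at 3.0 months, 4.35 ± 0.806 CPM at 4.5 months and 5.42 ± 0.851 CPM at 6.0 months. The de novo DNA methyltransferase dnmt3a had 32.5 ± 3.69 CPM at 1.5 months, 25.4 ± 1.61 CPM at 3.0 months, 23.7 ± 2.73 CPM at 4.5 months and 23.4 ± 2.52 CPM at 6.0 months, with the later means close to each other. For scml4, a Polycomb-like protein, the values were 35.0, 37.0 and 34.3 CPM at 1.5 months, 21.95, 33.0 and 26.9 CPM at 3.0 months, 16.5, 21.2 and 22.65 CPM at 4.5 months and 21.3, 21.9 and 21.5 CPM at 6.0 months, and 3.0 months replicate 2 was the later library nearest to 1.5 months. For ccni, an atypical cyclin, the means were 374 ± 53.5 CPM at 1.5 months, 259.5 ± 60.15 CPM at 3.0 months, 242 ± 37.4 CPM at 4.5 months and 259 ± 16.45 CPM at 6.0 months. The p53-induced gene tp53inp1 varied by under 1 CPM at 1.5 months and by more later, with 26.1 ± 0.535 CPM at 1.5 months, 18.9 ± 5.26 CPM at 3.0 months, 16.5 ± 5.31 CPM at 4.5 months and 18.3 ± 4.44 CPM at 6.0 months. The cullin neddylation factor dcun1d2 had the closest agreement at 1.5 months, with 11.3 ± 0.133 CPM at 1.5 months, 9.23 ± 0.815 CPM at 3.0 months, 7.475 ± 0.0397 CPM at 4.5 months and 8.42 ± 2.85 CPM at 6.0 months.

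Genes of neuronal growth and signalling formed the fourth group. The actin-binding protein marcks, a substrate of protein kinase C in growth cones, had 253, 260.2 and 286 CPM at 1.5 months, 188, 197 and 247 CPM at 3.0 months, 128, 141 and 157 CPM at 4.5 months and 127, 120.1 and 169 CPM at 6.0 months. The 3.0 month libraries lay between the youngest fish and the rest, and the 4.5 and 6.0 month libraries overlapped each other and not those of 3.0 months. Its paralog marcksl1 did not share this pattern in its values, with 687 ± 108 CPM at 1.5 months, 612 ± 90.03 CPM at 3.0 months, 935 ± 110.5 CPM at 4.5 months and 816 ± 50.1 CPM at 6.0 months. The axon guidance protein islr2 had 89.6, 126 and 101 CPM at 1.5 months, 61.2, 73.5 and 75.1 CPM at 3.0 months, 70.7, 45.0 and 52.2 CPM at 4.5 months and 63.3, 56.2 and 68.7 CPM at 6.0 months, a ratio of 1.68, and 4.5 months replicate 2 was its lowest library. The neurotrophin receptor scaffold kidins220 had 47.1 ± 4.51 CPM at 1.5 months, 31.7 ± 5.31 CPM at 3.0 months, 30.4 ± 3.37 CPM at 4.5 months and 34.8 ± 3.57 CPM at 6.0 months. The nicotinic acetylcholine receptor subunit chrnb2 had 57.4, 69.5 and 55.54 CPM at 1.5 months, 43.7, 55.49 and 45.7 CPM at 3.0 months, 44.15, 24.3 and 28.4 CPM at 4.5 months and 54.2, 54.3 and 44.1 CPM at 6.0 months. Its 1.5 month values exceeded the 3.0 and 6.0 month values by a small margin, and the lowest were 4.5 months replicates 2 and 3. The potassium channel kcnk10 had 8.405 ± 0.896 CPM at 1.5 months, 5.79 ± 0.998 CPM at 3.0 months, 4.40 ± 1.18 CPM at 4.5 months and 6.53 ± 0.918 CPM at 6.0 months.

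**Figure D3:**
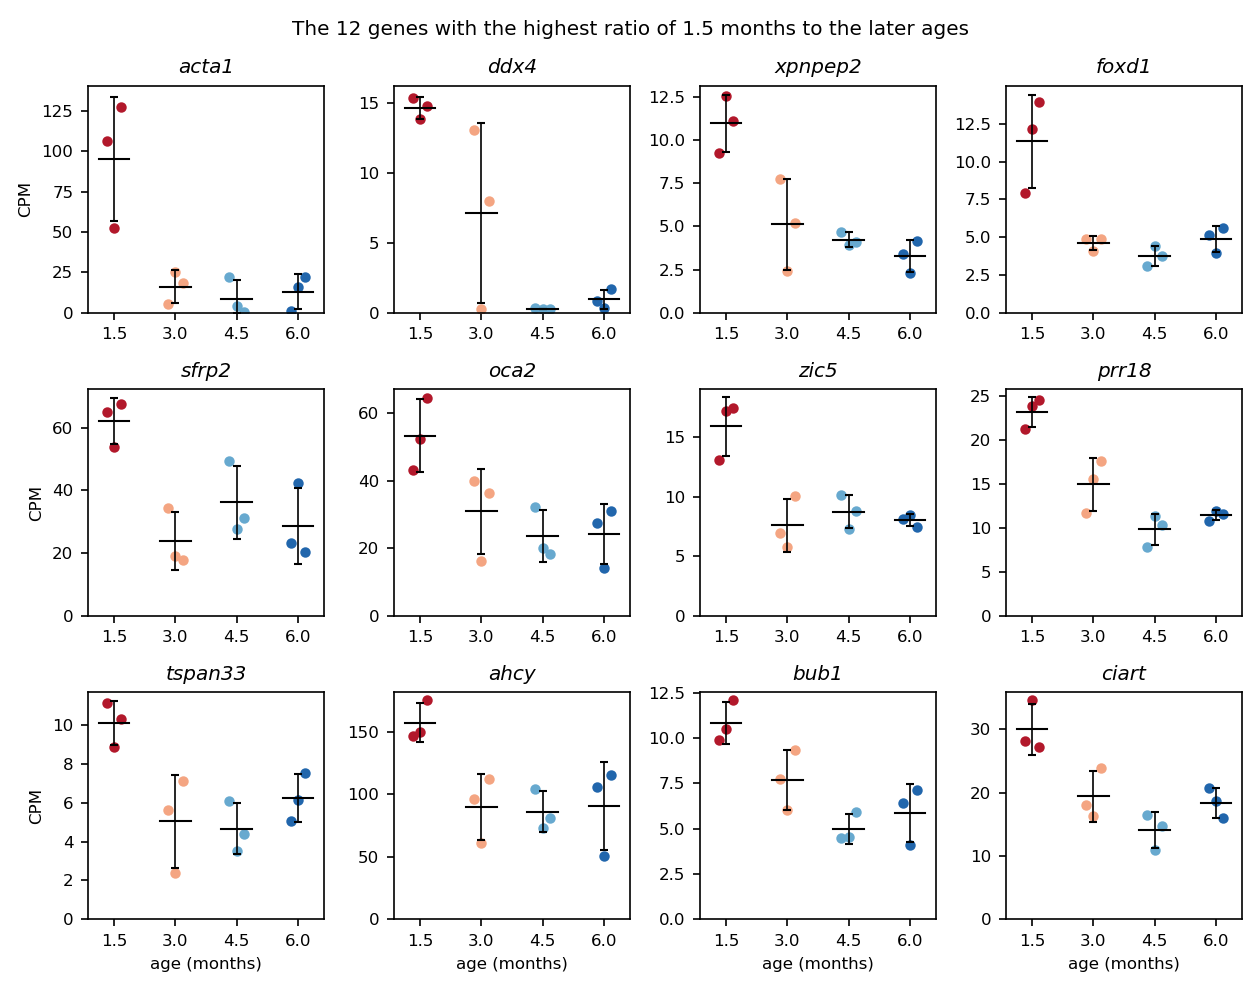
CPM by age for the 12 genes with the highest ratio of the 1.5 month mean to the later mean. Points are single fish, black bars the mean and its SD (n = 3, lower ends stopped at 0), and each y axis is linear from 0; ddx4 shows values near 0 and near those of 1.5 months side by side at 3.0 months, and sfrp2 and oca2 show wide later spreads.

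Pigment, matrix and cell-surface genes came next. The melanosome transporter oca2, the gene of oculocutaneous albinism in humans, had 43.25, 52.25 and 64.5 CPM at 1.5 months, 39.9, 16.4 and 36.4 CPM at 3.0 months, 32.3, 19.99 and 18.4 CPM at 4.5 months and 27.6, 14.1 and 30.9 CPM at 6.0 months. The low later values were those of replicate 2 at each later age and of replicate 3 at 4.5 months, at 14.1 to 19.99 CPM, against 27.6 to 39.9 CPM in the other 5. The same 4 libraries had the lowest summed level of 23 RPE and visual cycle genes, 7170 to 10030 CPM, against 13660 to 18630 CPM in the other 5 later libraries and 11690 to 19070 CPM at 1.5 months. Their part in the later spread of oca2 was not tested. The membrane aminopeptidase xpnpep2 had 9.28, 12.6 and 11.1 CPM at 1.5 months, 7.72, 2.44 and 5.18 CPM at 3.0 months, 4.70, 3.91 and 4.10 CPM at 4.5 months and 3.43, 2.32 and 4.17 CPM at 6.0 months. It was lowest in 6.0 months replicate 2 and 3.0 months replicate 2, while 3.0 months replicate 1 came nearest to the young fish. The tetraspanin tspan33 had 11.1, 8.89 and 10.3 CPM at 1.5 months, 5.60, 2.39 and 7.11 CPM at 3.0 months, 6.11, 3.53 and 4.38 CPM at 4.5 months and 5.055, 6.16 and 7.53 CPM at 6.0 months, with 3.0 months replicate 2 again lowest. For c1qtnf6, a secreted protein of the C1q and TNF-related family, the values were 17.3, 18.6 and 17.5 CPM at 1.5 months, 9.23, 6.985 and 9.81 CPM at 3.0 months, 12.2, 12.7 and 14.3 CPM at 4.5 months and 9.19, 6.78 and 14.5 CPM at 6.0 months. Here the 3.0 month libraries were lower than those of 4.5 months, the reverse of most of the 39 genes. The laminin gamma chain lamc1, part of basement membranes, had 61.2 ± 9.025 CPM at 1.5 months, 45.4 ± 6.26 CPM at 3.0 months, 37.4 ± 9.33 CPM at 4.5 months and 43.7 ± 3.49 CPM at 6.0 months. The peptidyl-prolyl isomerase ppic had 83.1 ± 11.6 CPM at 1.5 months, 64.5 ± 3.01 CPM at 3.0 months, 59.1 ± 6.02 CPM at 4.5 months and 62.45 ± 1.52 CPM at 6.0 months. The membrane carbonic anhydrase ca12 had 7.55 ± 0.771 CPM at 1.5 months, 6.02 ± 0.287 CPM at 3.0 months, 4.31 ± 0.536 CPM at 4.5 months and 5.01 ± 0.989 CPM at 6.0 months.

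Genes of protein synthesis, folding and methyl metabolism made up the next group. The chaperone hsp90ab1, the member with the most reads, had 2795, 3428 and 3254 CPM at 1.5 months, 2444, 1380 and 2393 CPM at 3.0 months, 2793, 1680 and 1617 CPM at 4.5 months and 2553, 2224 and 2378 CPM at 6.0 months. The other HSP90 genes did not share its pattern in their values. The paralog hsp90aa1.2 had 649 ± 147.5 CPM at 1.5 months, 957 ± 440.0 CPM at 3.0 months, 832 ± 351 CPM at 4.5 months and 1208 ± 243.5 CPM at 6.0 months. The endoplasmic reticulum chaperone hsp90b1 had 182 ± 15.2 CPM at 1.5 months, 177.5 ± 18.9 CPM at 3.0 months, 229 ± 12.5 CPM at 4.5 months and 217 ± 37.5 CPM at 6.0 months. The enzyme ahcy, which removes S-adenosylhomocysteine after methylation, had 147, 149.9 and 175 CPM at 1.5 months, 96.5, 60.8 and 112 CPM at 3.0 months, 104, 72.8 and 80.7 CPM at 4.5 months and 106, 50.2 and 115 CPM at 6.0 months, a ratio of 1.77. The later values of ahcy fell in a higher band, 96.5 to 115 CPM, and a lower band, 50.2 to 80.7 CPM. The paralogs ahcyl1 and ahcyl2 had ratios of 1.01 and 0.88. The translation initiation subunit eif3l had 159 ± 16.3 CPM at 1.5 months, 109 ± 18.5 CPM at 3.0 months, 109 ± 25.1 CPM at 4.5 months and 113 ± 7.99 CPM at 6.0 months. The tRNA synthetase complex scaffold aimp2 had 52.5 ± 3.03 CPM at 1.5 months, 37.45 ± 5.96 CPM at 3.0 months, 37.0 ± 6.74 CPM at 4.5 months and 44.1 ± 4.97 CPM at 6.0 months. In oca2, ahcy, ccni, hsp90ab1, eif3l and ppic, the 4 lowest later libraries were these same 4 of the later ages. That was 6 of the 39 genes (15.4%), against 573 of the 8095 eligible genes (7.08%). The same 4 libraries had the lowest sums of cytosolic ribosomal protein genes, 20060 to 29080 CPM, against 41360 to 56560 CPM in the other later libraries and 39370 to 52240 CPM at 1.5 months. The part of that difference in these values was not tested.

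The remaining members do not group. The clock gene ciart, a repressor of the circadian activators, had 28.1, 34.65 and 27.3 CPM at 1.5 months, 18.1, 16.3 and 23.9 CPM at 3.0 months, 16.5, 10.97 and 14.6 CPM at 4.5 months and 20.7, 18.6 and 15.96 CPM at 6.0 months, lowest in 4.5 months replicate 2. The time of day of collection is not given in the sources used here. The proline-rich protein gene prr18 had 21.2, 23.8 and 24.5 CPM at 1.5 months, 11.6, 15.5 and 17.6 CPM at 3.0 months, 7.88, 11.3 and 10.3 CPM at 4.5 months and 10.8, 11.9 and 11.6 CPM at 6.0 months. Its 3 ages from 1.5 to 4.5 months did not overlap, and the 6.0 month values overlapped those of 4.5 months and the lowest of 3.0 months. The gene ephx4, of the epoxide hydrolase family, had 9.41, 12.8 and 11.3 CPM at 1.5 months, 7.61, 8.06 and 8.197 CPM at 3.0 months, 6.56, 2.89 and 4.18 CPM at 4.5 months and 7.83, 5.97 and 7.29 CPM at 6.0 months, with 4.5 months replicates 2 and 3 lowest. The TLC-domain gene tlcd2 had 8.001 ± 1.39 CPM at 1.5 months, 4.85 ± 0.709 CPM at 3.0 months, 4.36 ± 1.46 CPM at 4.5 months and 5.91 ± 0.692 CPM at 6.0 months.

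The highest ratio belonged to acta1, the actin of skeletal muscle, at 7.53. Its values were 106, 52.57 and 127 CPM at 1.5 months, 5.285, 25.01 and 18.25 CPM at 3.0 months, 21.9, 4.05 and 0.160 CPM at 4.5 months and 0.778, 16.05 and 22.35 CPM at 6.0 months. The libraries of 1.5 months were at least 2.10 times any later one, and later fish of the same age differed among themselves, down to 8 counts in 4.5 months replicate 3 and 32 counts in 6.0 months replicate 1. A pair of locus-number entries that RefSeq names as fast muscle genes was looked up after the members were known. Both met the other thresholds of the rule, so their height at 1.5 months is by the choice and is no support for acta1. Among the later fish they followed the same libraries. The gene mylz3, a myosin light chain, had 23.6, 13.1 and 30.3 CPM at 1.5 months, 2.61, 9.28 and 6.885 CPM at 3.0 months, 11.6, 1.48 and 0.240 CPM at 4.5 months and 0.340, 9.998 and 9.14 CPM at 6.0 months. The troponin C gene tnnc2.2 had 14.7, 6.595 and 17.55 CPM at 1.5 months, 0.958, 3.74 and 3.89 CPM at 3.0 months, 4.555, 1.103 and 0.260 CPM at 4.5 months and 0.583, 3.26 and 4.345 CPM at 6.0 months. Each was lowest in 4.5 months replicate 3 and 6.0 months replicate 1, as acta1 was. The other 28 skeletal muscle genes tested summed to 141 to 241.5 CPM in the later libraries and 181 to 223 CPM at 1.5 months. In the test of the 3 later ages against 1.5 months edgeR called 0 of the 28, and their median log2 change was -0.49. An unadjusted p under 0.05 was found for 9 of the 28, a larger share than the 21.4% of all genes. DESeq2 called 3 of the 28, a share slightly above the 9.58% of all genes. The part of muscle RNA in acta1 was not tested.

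The germ-line gene ddx4 (vasa), an RNA helicase of germ cells, had the next highest ratio, 5.28. Its values were 15.4, 13.85 and 14.8 CPM at 1.5 months, 13.1, 0.293 and 7.999 CPM at 3.0 months, 0.298, 0.241 and 0.240 CPM at 4.5 months and 0.826, 0.320 and 1.70 CPM at 6.0 months. The young fish agreed closely, the 3.0 month fish ran from 12 to 452 counts, and no fish of 4.5 or 6.0 months was above 1.70 CPM. A further 16 entries were looked up after this was seen, by the names of gene families that act in the germ line. Not each of them need be specific to germ cells. Of these, 9 had a mean under 1 CPM, dazl with no counts at all, and 2 of the other 7, adad2 and piwil2, had a ratio of at least 1.3. The remaining 5 had ratios of 1.18 (piwil1), 0.98 (nanos1), 0.87 (tdrd9), 0.81 (tdrd3) and 0.80 (tdrd7b). The level of adad2, an RNA-binding protein of germ cells in mammals, was 10.2, 16.3 and 12.35 CPM at 1.5 months, 13.4, 6.203 and 15.1 CPM at 3.0 months, 3.94, 2.39 and 2.06 CPM at 4.5 months and 6.37, 8.85 and 5.96 CPM at 6.0 months. It overlapped between 1.5 and 3.0 months and was lowest at 4.5 months. The Piwi gene piwil2, which acts on transposons in the germ line, had 1.09, 17.15 and 0.836 CPM at 1.5 months, 0.987, 1.32 and 4.09 CPM at 3.0 months, 0.106, 0.0200 and 0.0600 CPM at 4.5 months and 0.729, 0.554 and 0.387 CPM at 6.0 months. A single library, 1.5 months replicate 2, carried most of its counts at that age, so its values did not follow those of ddx4 among the young fish.

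**Figure D4:**
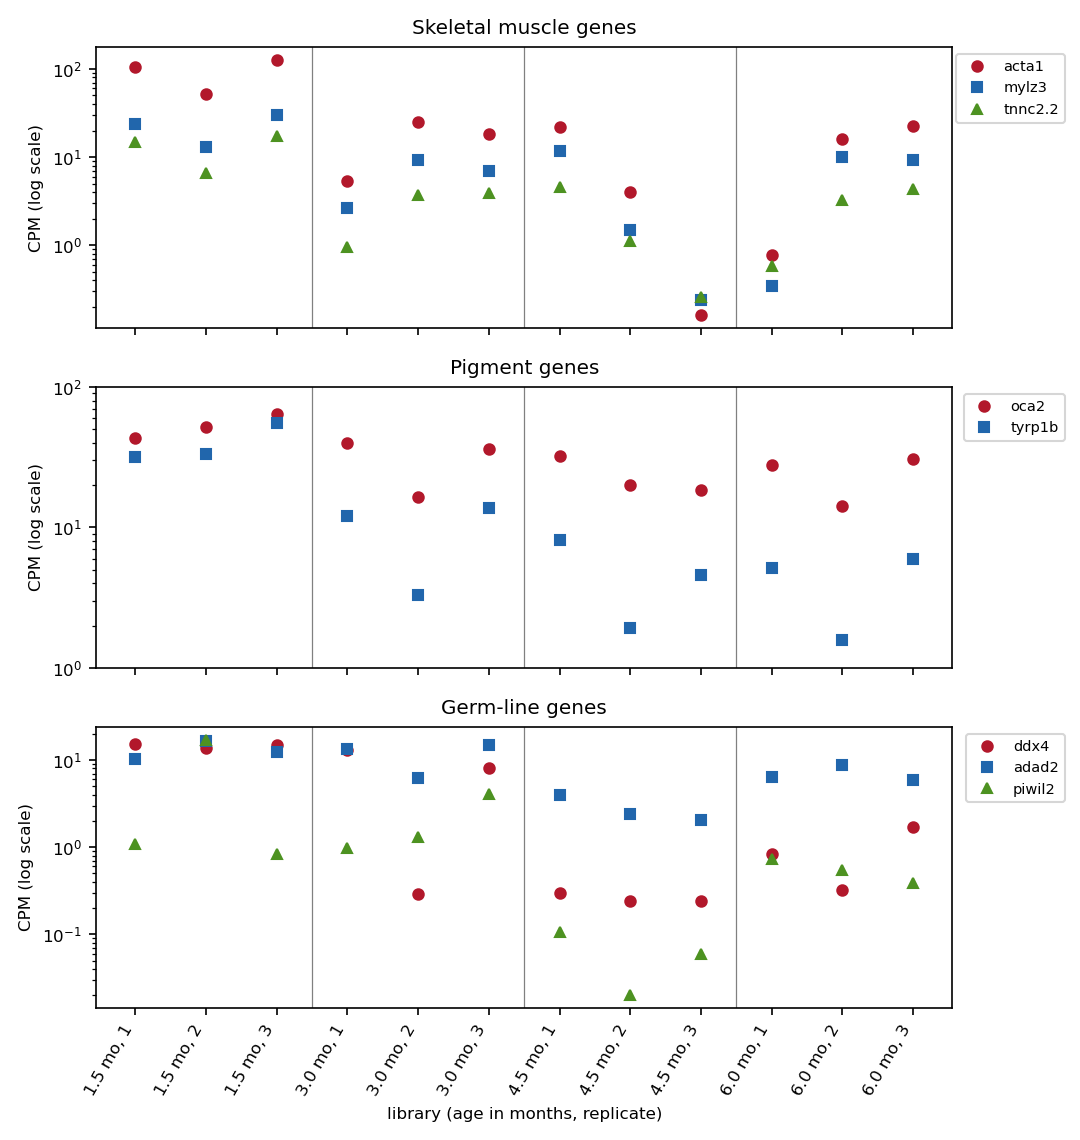
CPM (log scale) in each of the 12 libraries for skeletal muscle genes (top), pigment genes (middle) and germ-line genes (bottom). The genes acta1, oca2 and ddx4 are among the 39 genes and the others were looked up afterwards. Of those others, mylz3, tnnc2.2 and tyrp1b met the other thresholds of the rule, so their height at 1.5 months is by the choice. The muscle genes share their lowest libraries, 4.5 months replicate 3 and 6.0 months replicate 1, tyrp1b and oca2 are both lowest in 6.0 months replicate 2, and piwil2 exceeds 10 CPM in 1.5 months replicate 2 alone.

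The question of whether these genes kept changing after 1.5 months was tested on the 9 later libraries by edgeR's quasi-likelihood test, with Benjamini-Hochberg adjustment over 20439 genes and a threshold of 0.05. In the test of any difference among the later ages, 0 of the 39 genes passed, against 12 of all genes (0.0587%). The lowest adjusted p of the 39 was 0.181, for ddx4. Unadjusted p-values under 0.05 were found for 7 of the 39 (17.9%) and 13.7% of all genes, namely ddx4, marcks, dact2, prr18, mex3a, sobp and scml4. DESeq2 called 2 of the 39, ddx4 and marcks, against 1174 of the 19520 genes to which it gave an adjusted p (6.01%). With edgeR, ddx4 was called in this test without 3.0 months replicate 2, and chrnb2 without 4.5 months replicate 1.

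In 6.0 against 3.0 months, edgeR called 0 of the 39 genes and 0 of all genes (0.0%), with unadjusted p under 0.05 for 6 of the 39 (15.4%) and 7.49% of all genes. The log2 change was below 0 in 25 of the 39 (64.1%), against 52.1% of all genes, and its median was -0.12 in the 39 and -0.012 in all genes. The change of marcks was -0.67 ± 0.17 (SE), with an adjusted p of 0.512 from edgeR, 139 ± 26.6 CPM at 6.0 months against 211 ± 31.4 CPM at 3.0 months. DESeq2 called marcks alone among the 39 (adjusted p = 0.043), against 0.827% of all genes. The change of dact2 was -0.51 ± 0.15, with an adjusted p of 0.514 from edgeR. It was lower in 3 of 3 fish of 6.0 months than in any of 3.0 months.

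In 4.5 against 3.0 months, edgeR called 0 of the 39 genes and 10 of all genes (0.0489%), with unadjusted p under 0.05 for 9 of the 39 (23.1%) and 12.7% of all genes. The log2 change was below 0 in 31 of the 39 (79.5%), against 48.3% of all genes, and the median was -0.22 in the 39 and 0.013 in all genes. The change of ddx4 was -4.72 ± 1.15, with an adjusted p of 0.173 from edgeR and 0.00332 from DESeq2, which called it alone among the 39, against 3.58% of all genes. The change of mex3a was -0.62 ± 0.20 and that of ephx4 -0.75 ± 0.29, with adjusted p of 0.26 and 0.343 from edgeR. Without 4.5 months replicate 1, the change of ephx4 was -1.15 with an adjusted p of 0.0449, and chrnb2 was also called. Only c1qtnf6 and sfrp2 had changes above 0.5 in this comparison, 0.64 ± 0.27 and 0.67 ± 0.36, with adjusted p of 0.363 and 0.481 from edgeR.

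In 6.0 against 4.5 months, edgeR called 0 of the 39 genes and 14 of all genes (0.0685%), with unadjusted p under 0.05 for 2 of the 39 (5.13%) and 14.6% of all genes. DESeq2 called 0 of the 39 and 4.8% of all genes. The log2 change was below 0 in 15 of the 39 (38.5%), against 49.9% of all genes, and the median was 0.08 in the 39 and 0.0 in all genes. The change of chrnb2 was 0.52 ± 0.23, with an adjusted p of 0.337 from edgeR, and 0.0288 without 4.5 months replicate 1. The change of sobp was 0.37 ± 0.16, with an adjusted p of 0.323.

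**Figure D5:**
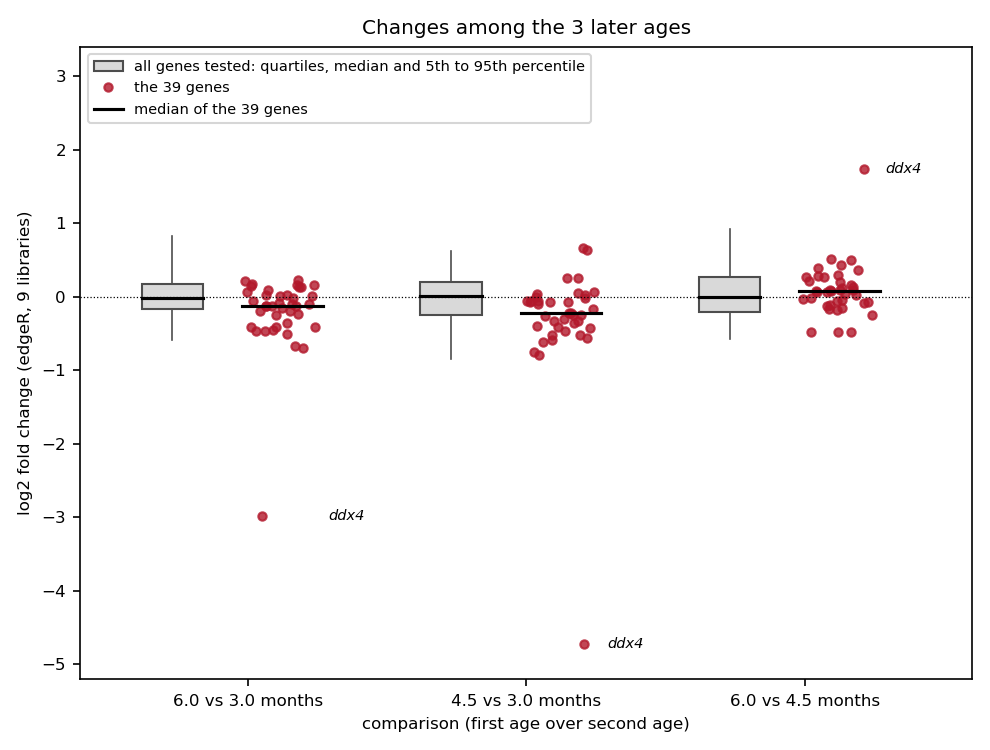
Log2 fold changes of the 39 genes (red points) among the later ages, each with the later age over the earlier one, beside all 20439 genes tested (grey box for the quartiles, line for the median, whiskers for the 5th and 95th percentiles). The median of the 39 genes is -0.12 in 6.0 against 3.0 months, -0.22 in 4.5 against 3.0 months and 0.08 in 6.0 against 4.5 months, and ddx4 lies far from the other genes in each.

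By the means alone, 4.5 months was the lowest of the later ages in 30 of the 39 genes (76.9%), against 40.2% of the eligible genes, and 3.0 months the highest in 23 (59.0%), against 23.5%. Means stepped down at every later step in 5 of the 39 (12.8%). The matching share of the eligible genes, 1.88%, also required a fall from the youngest age to 3.0 months. The choice gives that fall to every one of the 39, so these shares cannot be compared. The counts in this paragraph are counts of means and no test. At 4.5 months, replicates 2 and 3 carry the word Resub in their library names, which the labels leave unexplained. With those libraries left out, 4.5 months (replicate 1 alone) was the lowest later age in 19 of the 39 genes (48.7%), against 53.5% of the eligible genes. Without the 4 later libraries lowest in ribosomal protein counts the figures were 18 of the 39 (46.2%) and 50.9%. The excess of low means at 4.5 months was thus measured with replicates 2 and 3 and not without them.

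The pathways around the members were followed through 47 gene lists, of which 12 held 13 of the 39 genes, and the remaining 26 genes were in none. For list genes that are no members, the mean of the 3 later ages was tested against 1.5 months on all 12 libraries. Some of them, such as tyrp1b, stmn1b, cry5, rrm2b, dpysl5a, alcamb and kcng2, are locus-number entries that met the other thresholds of the rule. Others, such as tk1, fabp7 and sox4, missed the rule only by its floor or by an excluded name. The p-values of all these genes are no independent support. Over all 20717 genes edgeR called 223 lower later (1.08%) and 246 higher later (1.19%), with a median log2 change of -0.001 and an unadjusted p under 0.05 in 21.4%. The 469 calls in all became 36, 3 or 3 in number without replicate 1, 2 or 3 of 1.5 months, 59 to 2145 without a single later library (2145 without 4.5 months replicate 1) and 22 without the Resub libraries. DESeq2 made 1967 calls (9.58% of the 20523 genes to which it gave an adjusted p), and the list counts depend on which fish are in the fit. Replicate 1 of 1.5 months also stood apart in its content, with 6035 CPM of cornea and surface epithelium genes and 6398 CPM of mural cell and fibroblast genes, against at most 1630 and 1242 CPM elsewhere. Lens genes summed to 24980 CPM in 6.0 months replicate 1, 2461 CPM in 4.5 months replicate 1 and 1102 CPM in 1.5 months replicate 2, against at most 103 CPM in the rest.

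Around oca2, 1 of the 32 other melanin and pigment cell genes was lower later and 2 were higher, with a median of -0.14. The lower one was tyrp1b, a melanosome enzyme, with 31.8, 33.3 and 55.6 CPM at 1.5 months, 12.05, 3.32 and 13.8 CPM at 3.0 months, 8.09, 1.925 and 4.56 CPM at 4.5 months and 5.13, 1.58 and 5.92 CPM at 6.0 months. All 3 young fish were above every later one, and the log2 change of the later ages was -2.88 ± 0.49 (adjusted p = 0.0259 by edgeR). This locus-number entry met the other thresholds of the rule, so that height and its p-value are no independent support. The higher ones were hps4, a melanosome biogenesis gene, at 0.66 ± 0.12, and csf1r, a receptor of pigment cells and of microglia, at 0.93 ± 0.18 (adjusted p = 0.025 and 0.0336 by edgeR). Without 1.5 months replicate 1 none of the 3 was called.

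Around bub1, 3 of 92 other cell cycle genes were lower later and 1 was higher, with a median of -0.20. The lower ones were stmn1b, the microtubule-destabilizing stathmin that the rule excludes by name, at -1.27 ± 0.18, the ribonucleotide reductase subunit rrm2b at -0.59 ± 0.09 and thymidine kinase tk1 at -1.13 ± 0.24. Their adjusted p-values from edgeR were 0.012, 0.0173 and 0.041. The locus-number entries stmn1b and rrm2b met the other thresholds of the rule, and tk1 missed the rule by its floor of 5 CPM alone. These p-values test the difference that the rule uses and are no independent support. The cyclin ccnd2a was higher later, at 0.84 ± 0.17 (adjusted p = 0.0362 by edgeR). None of the 4 was called without 1.5 months replicate 1.

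Around marcks, 4 of 49 other genes of tubulin and the neuronal cytoskeleton were lower later and 0 higher, with a median of -0.21. They were stmn1b, dcx, a microtubule protein of migrating neurons, at -0.67 ± 0.13, and the growth cone genes dpysl5a and dpysl5 at -0.71 ± 0.12 and -0.57 ± 0.10, with adjusted p of 0.0356, 0.0229 and 0.0241 from edgeR for the last 3. Among retinal progenitor and neurogenesis genes, which hold no member, 6 of 42 were lower and 0 higher, with a median of -0.20. Of the 6, 4 (stmn1b, fabp7, sox4 and atoh7) have names the rule excludes. The proneural factor neurog1, at -1.31 ± 0.19 (adjusted p = 0.0131 by edgeR), is not, but its mean over the 12 libraries was under the floor of 5 CPM. Its means were 4.39 CPM at 1.5 months, 2.765 CPM at 3.0 months, 1.797 CPM at 4.5 months and 1.405 CPM at 6.0 months. Of the excluded names, stmn1b, fabp7 and sox4 met the other thresholds of the rule. The p-values of these genes and of neurog1 test the difference that the rule uses and are no independent support. Without 1.5 months replicate 1, 0 genes of these lists were called. Lists of other cell types without members also held calls. Of 18 genes of oligodendrocytes and myelin 4 were lower, with a median of -0.91, and of 23 retinal ganglion cell genes 3 were lower, with a median of -0.55. Of 24 microglia and macrophage genes 3 were higher, with a median of 1.0. Without 1.5 months replicate 1 these calls numbered 1, 0 and 0, and the medians were -0.96, -0.68 and 1.05. The part of these cell types in the values of the 39 genes was not tested.

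Around lamc1, 5 of 118 other extracellular matrix genes were lower later and 0 higher, with a median of -0.25, and around foxd1, 4 of 25 other mural cell and fibroblast genes were lower. Collagens col1a1b and col1a2 (-6.37 ± 1.31 and -5.09 ± 1.05) and the periostin genes postn and postnb (-4.05 ± 0.85 and -4.62 ± 0.98) made up the second count, with adjusted p of 0.0482, 0.0482, 0.0458 and 0.0468 from edgeR, and col6a3 joined them in the first. Without 1.5 months replicate 1, the library rich in these genes, 0 were lower in either list and the median of the matrix list was -0.02. In that library lamc1 was highest among the young fish, at 67.5 CPM against 50.8 and 65.2 CPM in the other 2, and foxd1 was lowest, at 7.94 CPM.

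Around ciart, 2 of 31 other genes on the circadian clock list were lower later and 2 higher, with a median of -0.19. The gene cry5 was lower, at -1.28 ± 0.23, with 30.8, 26.5 and 27.9 CPM at 1.5 months, 16.1, 22.2 and 19.6 CPM at 3.0 months, 11.5, 4.73 and 5.34 CPM at 4.5 months and 11.2, 15.9 and 15.9 CPM at 6.0 months. Its lowest libraries were 4.5 months replicates 2 and 3, and ciart was also lowest there. The nuclear receptor rora was lower by -0.41 ± 0.10, the Rev-erb gene nr1d4a higher by 1.58 ± 0.22 and the melatonin enzyme aanat1 higher by 1.16 ± 0.26. The adjusted p-values from edgeR were 0.025, 0.0118 and 0.0458 for cry5, nr1d4a and aanat1, and just under 0.05 for rora. Without 1.5 months replicate 1, only 1 gene of this list was called, a higher one.

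Around the other members few list genes were called by edgeR. Of 155 other genes of Wnt, Notch, BMP, Hedgehog and FGF signalling, beside sfrp2 and aldh1a2, 1 was lower (igf2, a growth factor, at -0.53 ± 0.11, adjusted p = 0.0413 by edgeR) and 0 higher, with a median of -0.13. Of 77 other heat shock and chaperonin genes, beside hsp90ab1, 0 were lower and 1 higher, with a median of 0.02. Of 101 other translation factors and tRNA synthetases, beside eif3l, edgeR called 0 (32 at an unadjusted p under 0.05) and DESeq2 12, with a median of -0.04. The 32 were a larger share of the 101 than the 21.4% of all genes, and the 12 a slightly larger share than the 9.58% of all genes. Of 175 other ion channels, beside kcnk10, 2 were lower and 1 higher, with a median of -0.03. Of 108 other transmitter receptors, beside chrnb2, edgeR called 0 (15 at an unadjusted p under 0.05) and DESeq2 4, with a median of -0.11. The 15 and the 4 were smaller shares of the 108 than those of all genes.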

How the data were processed

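RNA of retina with attached RPE was counted in 12 libraries, 3 fish at each of 4 ages, grouped by the age in the labels. The deposited table holds the authors' raw read counts per gene, with no normalization; the aligner, counter, annotation, strand setting and genome build are not given in the sources used here. Even numbers made up 73.16% of the counts between 1 and 20, a surplus that counting each mate of a pair would give, so the totals may overstate the number of independent fragments. The 2 other deposited tables, a copy of the counts and a normalized version, were not used.

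CPM is count over column sum. The later ages were tested in R 4.3.3 with edgeR 4.0.16 on the 9 later libraries (filterByExpr with minimum count 10 and total 15, TMM, glmQLFit and glmQLFTest with robust settings, Benjamini-Hochberg), leaving 20439 genes, a common biological coefficient of variation of 0.302 and 6 residual degrees of freedom. Non-member genes were tested on all 12 libraries (20717 genes). SE is the log2 change over the square root of F. DESeq2 1.42.0 was the other tool. The edgeR tests were also run on simulated counts with known changes, and no result given here rests on that run.

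The members and gene lists were chosen with earlier results of these data known. Text values follow a rule: the 15 highest ratios, the 10 highest mean CPM, members past a test, the 3 genes on either side of each threshold, list members, and up to 4 called genes a list; family members and companion genes were added after their values were seen. Name patterns in 2 lists that caught unrelated genes were narrowed after their counts were seen. Entries with a locus number took a symbol from RefSeq (NfurGRZ-RIMD1), which may not be the annotation counted on, so no coordinates are given. Reads shared by paralogs could be split in ways not stated. Some genes are not reported here.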

Additional observations from a re-analysis of the deposited data

How the results depend on the processing

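The number of genes the rule finds depends on scaling and on single libraries. Against 39, it was 136 with TMM-scaled library sizes and 153 with DESeq2 size factors, each time with the 39 among them; TMM factors were 0.932 to 0.958 at 1.5 months and 0.936 to 1.123 later, and the median log2 change of the later ages against 1.5 months in the eligible genes was 0.11 on column sums, 0.0 with TMM and -0.01 with DESeq2 size factors, against -0.67, -0.78 and -0.79 in the 39. It was 66 with no minimum ratio, 25 with a minimum of 1.5, 114 without the libraries with lens RNA (38 of the 39 kept) and 39 to 135 with 1 library left out. The count of 135 came without 1.5 months replicate 1; 68, 65 and 62 came without 1.5 months replicate 2, 3.0 months replicate 2 and 4.5 months replicate 1. Dropping 1 library removed at most 4 of the 39. Without 1.5 months replicate 1 or 3, ddx4 fell under the floor of 5 CPM, while its remaining 1.5 month values stayed above all later ones. Over the later libraries alone, ddx4 (2.78 CPM), xpnpep2 (4.22 CPM) and foxd1 (4.41 CPM) had means under that floor.

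Calls over all genes varied with the fit. In the test of any later difference they were 12, and 1174 with DESeq2, 7 with the replicate block, 89 without the lens libraries, 99 with all 12 libraries in the fit and 0 to 414 with 1 library left out. In 6.0 against 3.0 months they were 0, and 168 with DESeq2 and 0 whichever library was left out. In 4.5 against 3.0 months they were 10, and 685 with DESeq2, 214 without the lens libraries, 66 with all 12 and 0 to 389 with 1 left out. In 6.0 against 4.5 months they were 14, and 900 with DESeq2, 61 without the lens libraries, 124 with all 12 and 0 to 565 with 1 left out. In the 3 later ages against 1.5 months they were 469, and 1967 with DESeq2, 22 without the Resub libraries and 3 to 2145 with 1 left out. Among the fits with 1 library left out, the highest counts, other than in 6.0 against 3.0 months, came without 4.5 months replicate 1. The cause was not tested. The count of the 39 genes with their lowest later mean at 4.5 months, 30, was 19 without the Resub libraries and 18 without the 4 later libraries lowest in ribosomal protein counts, alternatives chosen after seeing the data.

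Replicate numbers were not treated as pairs. Over 18 pairs with the same number the correlation of deviations was -0.315 to 0.302, 8 pairs were over 0.1 and 6 of 12 libraries matched their own number best. Among the later ages it was 0.0699 to 0.19 for replicate 1, 0.177 to 0.256 for replicate 2 and -0.315 to 0.302 for replicate 3. Whether fish with the same number share a batch was not tested. The replicate block called 0 of the 39 genes. None of the log2 changes recomputed for single members, or for their median, reversed its sign under the alternatives run. Intervals of single low counts, such as ddx4 at 12 counts, are wide at this depth.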

Other observations

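The rule left out entries known by a locus number. Of 5963 such entries with a mean of at least 5 CPM, 66 met its other thresholds, and 38 of these took a RefSeq symbol; they met the thresholds by the same values as the 39 genes. Of these, tyrp1b, stmn1b, cry5, rrm2b and dpysl5a appear among the list genes above. The entries alcamb and kcng2 are counted there among the calls of ganglion cell genes and ion channels. The p-values of all of them test the difference that the thresholds use and are no independent support. The muscle entries mylz3 and tnnc2.2 above also belong to the 38. The genes below are given by their values, with no test. The chaperone hspa8, an HSP70 that works with HSP90, had 3279 CPM at 1.5 months, 2049 CPM at 3.0 months, 1917 CPM at 4.5 months and 2143 CPM at 6.0 months (ratio 1.61); hsp90ab1 is among the 39. The values below keep this order of ages. The opioid peptide gene pdyn had 17.7, 6.195, 7.58 and 6.69 CPM (ratio 2.59). Eye-field and neural transcription factors were also there, otx2b with 47.3, 35.3, 33.7 and 31.3 CPM, otx1 with 24.1, 16.8, 17.6 and 19.2 CPM and pou3f3b with 13.8, 10.1, 10.3 and 11.03 CPM. The cell cycle phosphatase cdc25b had 27.2, 19.9, 18.2 and 18.8 CPM, and the adhesion molecule alcamb, of growing ganglion cell axons, had 52.0, 37.4, 21.1 and 27.6 CPM.

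A further 21 named genes under 5 CPM met the other thresholds, and of the genes excluded by name, fabp7 and sox4 met all of them.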
